A study of Mus musculus with 12 samples.

Results

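The histone cluster genes are the genes that encode the core histones H2A, H2B, H3 and H4 and the linker histone H1 and that for the most part lie together in 4 clusters of the mouse genome. They were chosen by symbol (Hist1h to Hist4h), and 70 of the 50433 genes listed for renal tubular epithelial cells (TECs) and the same 70 of the 50434 genes listed for neutrophils (PMN) carry such a symbol. By histone type the members comprise 6 H1, 20 H2A, 19 H2B, 12 H3 and 13 H4 genes. By symbol, 56 belong to cluster 1 on chromosome 13, 10 to cluster 2 on chromosome 3, 3 to cluster 3 on chromosome 11 and 1 to cluster 4 on chromosome 6. The pseudogene Hist1h2al, at chr13:51202727-51203065, lies far from the others named for cluster 1. The annotation calls 67 of them protein coding and 3 pseudogenes.

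RNA was sequenced from wildtype mice 24 hours after renal ischemia-reperfusion injury (IRI) by clamping of the renal pedicles, an injury that every group shares. TECs were sorted from kidneys as CD45-negative and Prominin-1-positive cells, and neutrophils came from peripheral blood. In each cell type 3 libraries of glutamine-treated mice were compared with 3 libraries of vehicle-treated mice. Glutamine was injected as an alanyl-glutamine dipeptide in saline and vehicle was saline; no uninjured group was analysed here. The labels do not say that each library is a separate mouse, so that p-values measure the spread between these libraries. TEC vehicle libraries carry the replicate numbers 3, 4 and 5 and the other groups 1, 2 and 3.

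DNA is wound around an octamer of the 4 core histones, and H1 binds where DNA enters and leaves it. The clusters mostly hold replication-dependent genes, which supply histones during S phase. Their mRNAs are the known exception among animal mRNAs: they end in a conserved stem-loop in place of a poly(A) tail, and the stem-loop binding protein Slbp holds this end. Some cluster genes also give longer, polyadenylated transcripts that run past the stem-loop, mainly in cells that have stopped dividing. Mature tubular cells divide rarely unless injured, and blood neutrophils do not divide. The labels state that cDNA was primed from the poly(A) tail for all 12 libraries, a tail that a transcript ending at the stem-loop lacks.

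The 3′ stem-loop was searched in the GENCODE M21 transcripts (GRCm38) as GG, any 3 bases, T, any 4 bases (the loop), A, any 3 bases and CC, where the 6 bases on each side of the loop pair (G with T allowed), on the transcript strand only. It was found in 46 of the 70 members. Among genes with at least 100 annotated bases after the stop codon, the first 100 bases held it in 26 of 31 members (83.9%) and in 29 of 19894 other genes (0.146%). The most frequent form, shared by 26 members, was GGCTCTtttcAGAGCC, and the H4 genes mostly had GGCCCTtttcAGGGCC, in 7 members. The sites of the members with the highest levels that have one are shown with 5 flanking bases on each side, because they mark where the stem-loop form of each mRNA would end. Capitals mark the paired arms, and lower case marks the loop and the flanks.
Hist1h1c: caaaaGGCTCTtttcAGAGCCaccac
Hist4h4: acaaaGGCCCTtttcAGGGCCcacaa
Hist3h2a: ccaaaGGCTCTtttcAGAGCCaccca
Hist1h1e: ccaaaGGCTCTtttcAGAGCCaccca
Hist1h4i: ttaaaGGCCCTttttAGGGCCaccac
Hist1h4h: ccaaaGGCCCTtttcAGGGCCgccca
Hist1h2bg: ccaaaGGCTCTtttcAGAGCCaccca
Hist2h2aa1: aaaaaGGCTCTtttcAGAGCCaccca

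What follows the stem-loop in the annotation differed widely between these genes. In Hist1h1c (plus strand) the stem-loop lies at chr13:23739512-23739527, 24 bases after the stop codon, and the transcript goes on for 840 bases to a poly(A) signal AATAAA. In Hist4h4 (minus strand) it lies at chr6:136803998-136804013, and 2445 further bases end at AATAAA. Hist3h2a (plus strand, chr11:58955172-58955187) goes on for 1643 bases to AATAAA, Hist1h4i (minus strand, chr13:22040966-22040981) for 330 bases to ATTAAA, and Hist1h1e (minus strand, chr13:23621782-23621797) for 1153 bases without either signal. Hist1h4h (plus strand, chr13:23531458-23531473) ends 46 bases past it, though with an ATTAAA signal 26 bases from the end, and Hist2h2aa1 (plus strand, chr3:96246032-96246047) ends 35 bases past it without either signal. Hist1h2bc, at chr13:23684199-23692908, is annotated with a spliced transcript of 1156 bases whose 3′ UTR holds no stem-loop. Over all members, 23 run more than 100 bases past the stem-loop, 23 end within 100 bases of it, 4 have a longer 3′ UTR without one and 20 have no or only a short annotated 3′ UTR. A poly(A) signal AATAAA or ATTAAA stood in the last 40 bases of 12 of the 23 members that run past the stem-loop and of 2 of the 23 that end near it, Hist1h4h and Hist1h2bp.

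Reads of 50 bases can rarely tell the members apart along their whole length. On average (median) 44.8% of the 50-base windows of a member's transcripts were unique to it, and 37 of 70 members had under 50% unique windows. Of the members abundant in TECs, Hist1h1c (91.5%) and Hist4h4 (91.9%) were well resolved. Hist1h2bc was less so, with 69.4% unique windows and 23.1% shared with Hist1h2bg. Hist1h2br and Hist1h2bq shared 93.2% of the windows of Hist1h2br, and Hist1h2ao, Hist1h2ap, Hist1h4m and Hist1h4n had at most 14.4% unique windows each. Estimated counts divide such reads among the copies by a model, so that a count of a near-identical copy is uncertain.

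TEC libraries held between 5397370 and 10223461 counts and PMN libraries between 20225246 and 21878446. A gene without a count can hold up to 3 counts, which is 0.293 to 0.556 CPM (counts scaled to the library total) in a TEC library and 0.137 to 0.148 CPM in a PMN library, a limit that covers counting error only. The 7 tubular markers summed to 2110.4 to 3308 CPM in TECs, each with counts, and CD45 (Ptprc) stood at 0.101 to 2.57 CPM, whereas neutrophil markers summed to 102 to 266 CPM and hemoglobin and other erythroid genes to 876 to 6188 CPM. The 8 neutrophil markers summed to 21848 to 62958 CPM in PMN, each with counts, against 3067 to 5859 CPM of monocyte and macrophage markers. Most of the latter sum was Lyz2, with a mean of 3295 CPM. Csf1r had a mean of 500 CPM, Ccr2 198, Adgre1 76.3 and Cx3cr1 12.5 CPM. In bulk RNA, fewer cells of a type and less RNA per cell cannot be told apart.

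In TECs the histone cluster genes were a very small part of the RNA. Their share of all counts was 0.0268%, 0.0233% and 0.0288% in vehicle replicates 3, 4 and 5 and 0.0197%, 0.0223% and 0.0266% in glutamine replicates 1, 2 and 3. The vehicle mean was 0.0263% ± 0.0028 and the glutamine mean 0.0228% ± 0.0035 (SD, n = 3 each), and the groups overlapped. In PMN the share was 0.0477%, 0.0444% and 0.0537% with vehicle and 0.0571%, 0.0535% and 0.0308% with glutamine. The means were 0.0486% ± 0.0047 and 0.0471% ± 0.014 (SD, n = 3 each), and the lowest and the highest of the 6 libraries were both glutamine libraries. Without genes whose PMN values a spreadsheet program had altered, the mean share was 0.0337% with glutamine and 0.0240% with vehicle. These are shares of the counts on the remaining genes, not of all counts. Their spread over libraries was not computed, so no direction is read from them. As a summed level over chosen members, the share was given no test. The 11 replacement histone genes, whose mRNAs are mostly polyadenylated and made also outside S phase, took a larger share. In TECs it was 0.130%, 0.139% and 0.130% with vehicle and 0.0995%, 0.118% and 0.110% with glutamine, groups that did not overlap and were given no test. These totals are not TMM-scaled; in unscaled CPM 15.4% of all TEC genes parted in this direction, and after TMM scaling 1 of the 10 tested genes of this list did. In PMN the share was 0.469% to 0.607% over both groups, which overlapped.

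The histone types took unequal shares, and the order differed between the tables. Averaged over the 6 TEC libraries, H1 genes held 40.3% of the member counts, H4 34.0%, H2B 20.5%, H2A 4.73% and H3 0.470%. In PMN the H2A genes led with 38.4%, followed by H2B with 26.7%, H1 with 19.1%, H4 with 14.96% and H3 with 0.791%. The order of H1 and H4 in PMN turned with the group: with vehicle H4 held 18.3% ± 3.79 and H1 17.9% ± 4.73, with glutamine 11.6% ± 2.52 and 20.3% ± 7.82 (SD, n = 3 each), and for both types the groups overlapped. Hist2h2aa1, Hist1h1c, Hist1h2bc, Hist1h2br, Hist1h4i, Hist3h2a, Hist4h4 and 4 low H2A genes each have at least 1 PMN value that was decoded after a spreadsheet program had altered it. Over genes with no decoded value, which leaves these 11 members out, H2A did not lead. Shares of this kind take only the counts on those genes as the total, so they cannot be set against shares of all counts. With vehicle H2A held 0.0184% of all counts. Of the counts on undecoded genes it held 0.00524%, against 0.00827% for H4 and 0.00743% for H2B. With glutamine H2A held 0.0176% of all counts. Of the counts on undecoded genes it held 0.00539%, against 0.0148% for H2B and 0.0103% for H4. H3 genes, 12 in number, were the lowest type in every library of both tables with all members counted, but over genes with no decoded value the PMN glutamine share was 0.00186% for H3 and 0.00140% for H1. By cluster, cluster 1 held 65.6% of member counts in TECs and 60.1% in PMN; the single gene of cluster 4 (Hist4h4) held 29.4% in TECs and 3.34% in PMN, and cluster 2 held 1.04% and 32.5%. The PMN shares of H2A and of cluster 2 rest mostly on Hist2h2aa1, which has no unique windows and no count in TECs, where the overlapping transcript Gm20634 has counts. How far the assignment of reads at this locus sets the difference in these shares between the tables was not tested. The tables come from different libraries and their levels were set side by side without a test.

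**Figure D1:**
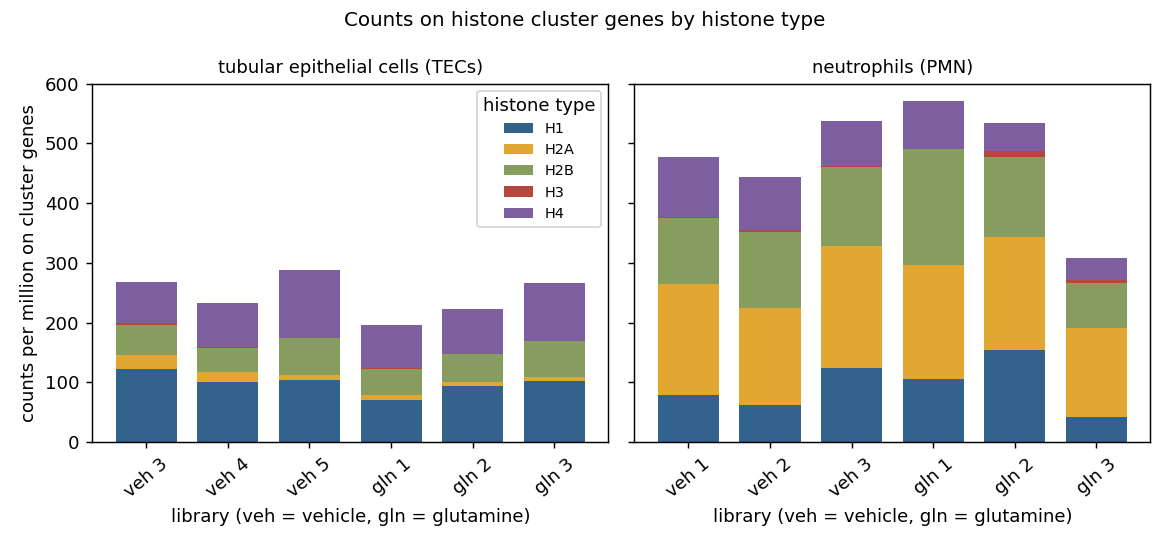
CPM on histone cluster genes in each library (bars, stacked by histone type) in TECs and PMN; veh is vehicle and gln glutamine, numbers are replicates. H1 and H4 fill most of each TEC bar, H2A is the largest part of the PMN bars in mean, and the glutamine and vehicle bars overlap in height in both cell types.

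Many members had no count. In TECs 31 of 70 had a count in any library and 13 had a count in all 6; in PMN these numbers were 45 and 12. Together, 19 members had no count in either table, and 4 had a count in all 12 libraries: Hist1h1c, Hist1h2bc, Hist1h2be and Hist1h4i. The highest 3 members held 85.5% of the member counts of a TEC library and 66.5% of those of a PMN library on average. Per kilobase of transcript, which makes genes comparable, the highest TEC levels were 58.3 CPM for Hist1h1c (40.1 to 69.6 over the libraries), 40.9 for Hist1h2bc (32.2 to 51.5) and 25.2 for Hist4h4 (20.5 to 35.0), each range overlapping the next. In PMN, Hist2h2aa1 stood at 254 CPM per kilobase (191 to 316), above the ranges of Hist1h2bc (26.2 to 129) and Hist1h1c (26.4 to 98.7). By type, 10 of 19 H2B and 9 of 13 H4 genes had a count in any TEC library, against 4 of 6 H1, 4 of 20 H2A and 4 of 12 H3 genes.

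The members that TECs did show were mostly those annotated past the stem-loop. Of the 23 such members 18 had a count in TECs and 10 in all 6 libraries, compared with 7 and 1 of the 23 members that end near it, the 1 being Hist1h4h, which has a poly(A) signal. None of the 20 members with no or a short 3′ UTR had a count in all 6. Members that run past the stem-loop held 78.6% of the TEC member counts, those with a longer 3′ UTR and no stem-loop 19.7%, those that end near it 1.56% and the rest 0.116%. In PMN the shares were 39.3%, 21.7%, 38.6% and 0.315%, and the 38.6% rests mostly on Hist2h2aa1, with the same limit of read assignment. Across the 46 members with a stem-loop, the annotated length past it and the mean CPM had a Spearman correlation of 0.63 in TECs and 0.18 in PMN, and of 0.56 and 0.05 with CPM per kilobase of transcript. These are descriptions over genes that share libraries and reads, and a longer transcript also collects more reads.

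**Figure D2:**
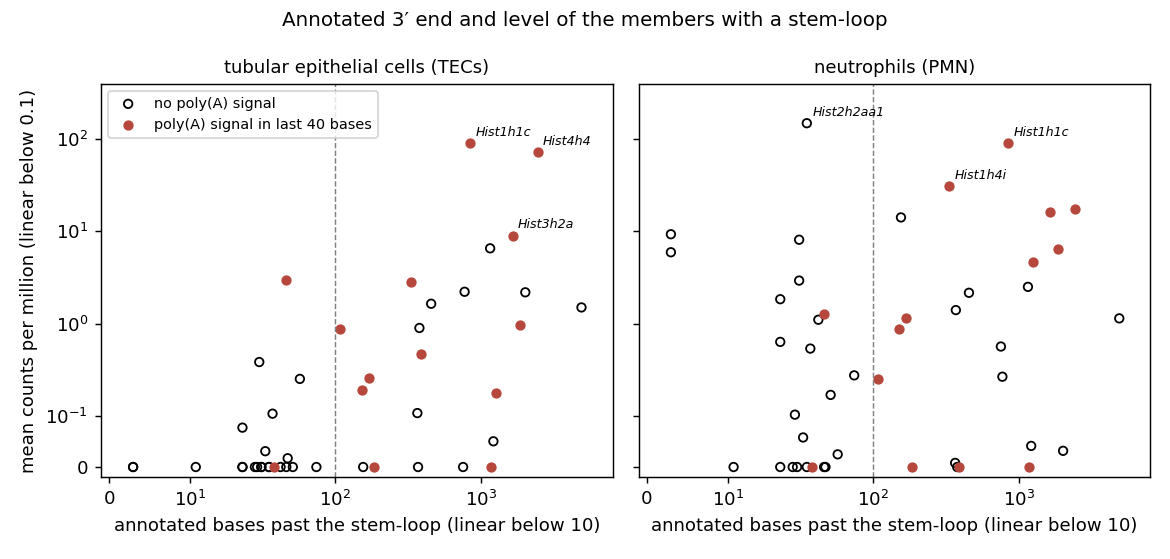
Mean CPM over 6 libraries against annotated bases past the stem-loop for the 46 members that have one, in TECs and PMN; red points have a poly(A) signal in the last 40 bases, and the dashed line is at 100 bases. In TECs the highest points (Hist1h1c, Hist4h4, Hist3h2a) lie to the right of the line; in PMN the highest (Hist2h2aa1) lies to its left. Both axes are logarithmic above the linear part near 0.

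Some RNAs that lack a poly(A) tail also stood at other levels in the 2 tables. Rn7sk, a small nuclear RNA that is not polyadenylated and was looked at after its values were seen, stood at 3789 to 6749 CPM in TECs and at 0 to 9.06 CPM in PMN. Rmrp, Rpph1 and Terc, whose mature RNAs also lack the tail, were low in both with overlapping ranges: Rmrp at 0 to 3.60 CPM in TECs and 0 to 0.386 CPM in PMN, Rpph1 at 1.499 to 6.73 and 0.0948 to 3.02 CPM, and Terc without a count in any library. The annotated snRNA genes took 0.0463% to 0.0862% of TEC counts and 0.00142% to 0.00243% of PMN counts. The labels give 1 library protocol for all 12 samples, whereas the form of the sample titles differs between TECs and PMN. The part of library preparation in the histone levels was not tested, and it cannot be told apart from the cell type.

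Among the H1 genes, Hist1h1c (H1.2, a somatic linker histone) was the highest member in TECs. It stood at 109, 88.7 and 101 CPM with vehicle and 62.5, 88.0 and 97.2 CPM with glutamine. The vehicle mean was 99.4 ± 9.99 and the glutamine mean 82.6 ± 18.0 CPM (SD, n = 3 each), and 1 glutamine library was well under the others. The log2 fold change (glutamine against vehicle) in edgeR's quasi-likelihood test, which rescales the libraries by the TMM method, was -0.10 (SE 0.23, adjusted p = 0.889). In PMN Hist1h1c was as high, at 76.0, 58.0 and 115 CPM with vehicle and 96.2, 154 and 41.1 CPM with glutamine, with a log2 fold change of 0.26 (SE 0.67). Glutamine libraries were both the highest and the lowest here. Hist1h1e (H1.4) was a low gene, at 13.1, 7.34 and 2.61 CPM with vehicle and 7.49, 4.45 and 4.32 CPM with glutamine in TECs. It overlaps Hist1h2be on the same strand, and 68.0% of its windows were unique.

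Among the H4 genes, which encode the same protein from many copies, the leading copy was Hist4h4 in TECs and, by the mean over all 6 libraries, Hist1h4i in PMN. In the PMN glutamine mean Hist4h4 (17.1 ± 29.1 CPM) was above Hist1h4i (13.4 ± 2.94 CPM), through 1 library. Hist4h4 stood at 58.6, 61.6 and 100.2 CPM with vehicle and at 65.3, 63.55 and 84.0 CPM with glutamine in TECs. The groups lay within each other, with a log2 fold change of 0.10 (SE 0.27, adjusted p = 0.907 in edgeR's test). In PMN the same gene had 2, 582 and 566 counts with vehicle and 1068, 11 and 0 counts with glutamine, so that 3 of 6 libraries held nearly all of it. Hist1h4h, the 1 member of the TEC libraries that ends near the stem-loop and was present in all of them, stood at 2.84 to 3.42 CPM with vehicle and 2.04 to 3.91 CPM with glutamine. Hist1h4c had the largest positive log2 fold change of the tested members in TECs, 1.78 (SE 0.99, adjusted p = 0.472 in edgeR's test), on counts of 6, 17 and 1 with vehicle and 12, 26 and 12 with glutamine.

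Hist1h4i was the 1 tested member whose groups did not overlap after TMM scaling, in PMN. It had 1595, 1083 and 426 counts with vehicle and 309, 208 and 314 counts with glutamine there, or 49.1 ± 28.4 and 13.4 ± 2.94 CPM (SD, n = 3 each). Every glutamine library was below every vehicle library, while the vehicle libraries spread over 20.5 to 77.2 CPM. The log2 fold change was -1.84 (SE 1.10), with an adjusted p of 1.0 in edgeR's test over 10130 genes. In TECs Hist1h4i had 26, 38 and 50 counts with vehicle and 22, 6 and 17 with glutamine, a log2 fold change of -0.93 (SE 0.61, adjusted p = 0.543 in edgeR's test). The TEC groups did not overlap in unscaled CPM (2.81 to 5.03 against 1.11 to 2.54, beside 15.4% of all TEC genes that parted in this direction) and overlapped after TMM scaling.

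Hist1h4d stood at 2.16, 3.33 and 4.12 CPM with vehicle and at 0.461, 0.741 and 2.47 CPM with glutamine in TECs. Its log2 fold change was -1.19 (SE 0.78, adjusted p = 0.541 in edgeR's test), and the groups overlapped through 1 glutamine library. In PMN, the near-identical copies Hist1h4m and Hist1h4n summed to 19.7, 9.78 and 19.1 CPM with vehicle and 15.3, 2.46 and 17.9 CPM with glutamine. The groups overlapped for the pair as for each copy.

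Among the H2B genes, Hist1h2bc was the leading one in both cell types. It stood at 47.7, 37.2 and 59.5 CPM with vehicle and 39.1, 40.6 and 59.3 CPM with glutamine in TECs, a log2 fold change of 0.10 (SE 0.27). The groups overlapped almost entirely. In PMN it stood at 82.0, 101 and 62.5 CPM with vehicle and 149, 70.5 and 30.3 CPM with glutamine, with a log2 fold change of 0.10 (SE 0.76); glutamine libraries again gave both extremes. Hist1h2br and Hist1h2bq, which share most of their windows, summed to 4.16, 21.8 and 52.2 CPM with vehicle and 14.2, 20.7 and 24.1 CPM with glutamine in PMN. Hist1h2bg had 455, 65 and 338 counts with vehicle and 76, 607 and 218 with glutamine in PMN, a log2 fold change of 0.06 (SE 1.49). In TECs the pair Hist1h2br and Hist1h2bq had 1 count with vehicle and 3 with glutamine in all. Hist1h2be had the largest positive log2 fold change in PMN, 3.04 (SE 1.94, adjusted p = 1.0 in edgeR's test). It rested on 583 counts in 1 glutamine library, the others holding 140 and 3 and the vehicle libraries 54, 11 and 28.

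Among the H2A genes, Hist2h2aa1 was the highest member of PMN by both CPM and CPM per kilobase. It had 167, 112 and 185 CPM with vehicle and 163, 152 and 115 CPM with glutamine, a log2 fold change of -0.07 (SE 0.44). The groups overlapped, and this was the steadiest member of PMN, with the smallest SE of the 18 tested. In TECs the gene had no count in any library. None of its windows are unique: all are also found in Gm20633 on the opposite strand, and its exon overlaps the same-strand transcript Gm20634, which has 404 to 796 counts in each TEC library and none in any PMN library. Summed with Hist2h2aa2, Hist2h3c1, Gm20633 and Gm20634 at this locus, the level was 53.3 to 92.0 CPM in TECs and 112 to 186 CPM in PMN. Gm20632, which holds all windows of Hist2h2aa2 on the opposite strand, is not in this sum and had 3.89 to 16.5 CPM in TECs and 11.6 to 34.6 CPM in PMN. A read inside Hist2h2aa1 could therefore be placed in more than 1 gene, and the table alone does not show which was transcribed.

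Hist3h2a, the leading H2A gene of TECs, stood at 21.0, 14.8 and 3.22 CPM with vehicle and 6.80, 6.48 and 1.65 CPM with glutamine. Vehicle replicate 5 was under 2 of the glutamine libraries, so that the groups overlapped. Its log2 fold change was -1.19 (SE 0.65), with an adjusted p of 0.466, the lowest of the tested members, in edgeR's test over 14734 genes. It shares 31.5% of its windows with Trim17, which had counts in 1 TEC library. In PMN Hist3h2a had 11, 907 and 53 counts with vehicle and 0, 561 and 502 with glutamine. The near-identical Hist1h2ao and Hist1h2ap summed to 14.7, 8.82 and 12.3 CPM with vehicle and 21.0, 7.97 and 8.55 CPM with glutamine in PMN, and the groups overlapped. Hist1h2ae, with 41, 3 and 27 counts with vehicle and 28, 9 and 0 with glutamine there, had a log2 fold change of -0.87 (SE 1.58). Hist1h2ac had 24, 19 and 33 counts with vehicle and 15, 0 and 35 with glutamine in TECs.

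H3 genes had few counts. In TECs the highest was Hist2h3c2, with 27, 11 and 0 counts with vehicle and 12, 0 and 0 with glutamine, and it had the largest negative log2 fold change of the tested members, -1.24 (SE 1.51, adjusted p = 0.759 in edgeR's test). In PMN the H3 genes appeared in scattered libraries: Hist1h3e, named after its values were seen, had 170 counts in 1 glutamine library, 4 in 1 vehicle library and none in the other four.

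**Figure D3:**
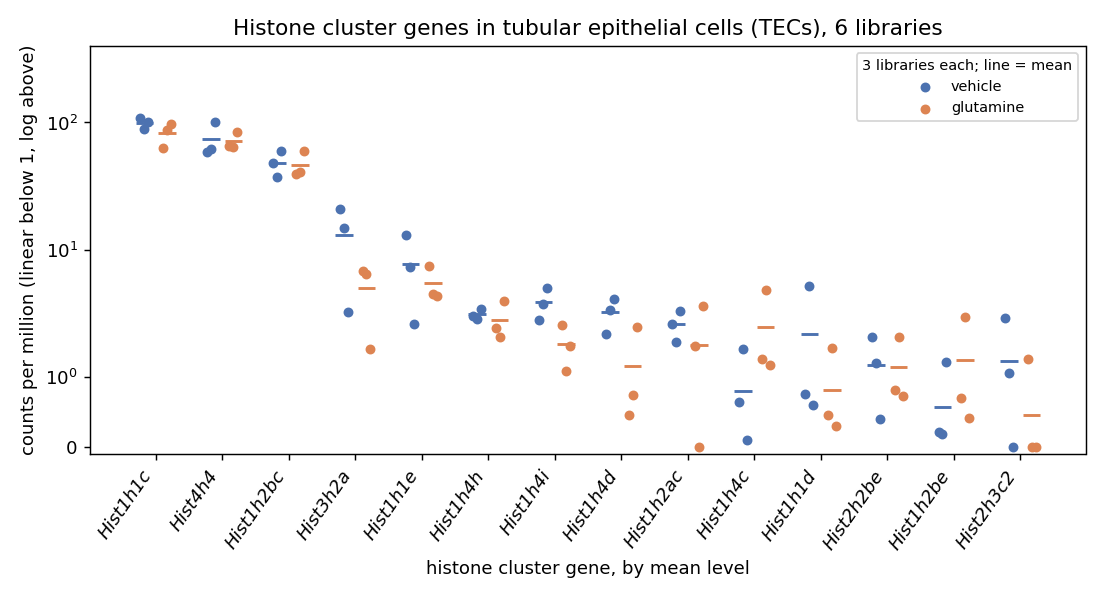
CPM of the 14 highest histone cluster genes in TECs (points, 3 libraries per group; lines, group means) on an axis that is linear below 1 and logarithmic above. Hist1h1c, Hist4h4 and Hist1h2bc lie well above the rest, and vehicle and glutamine points overlap for all but Hist1h4i.

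**Figure D4:**
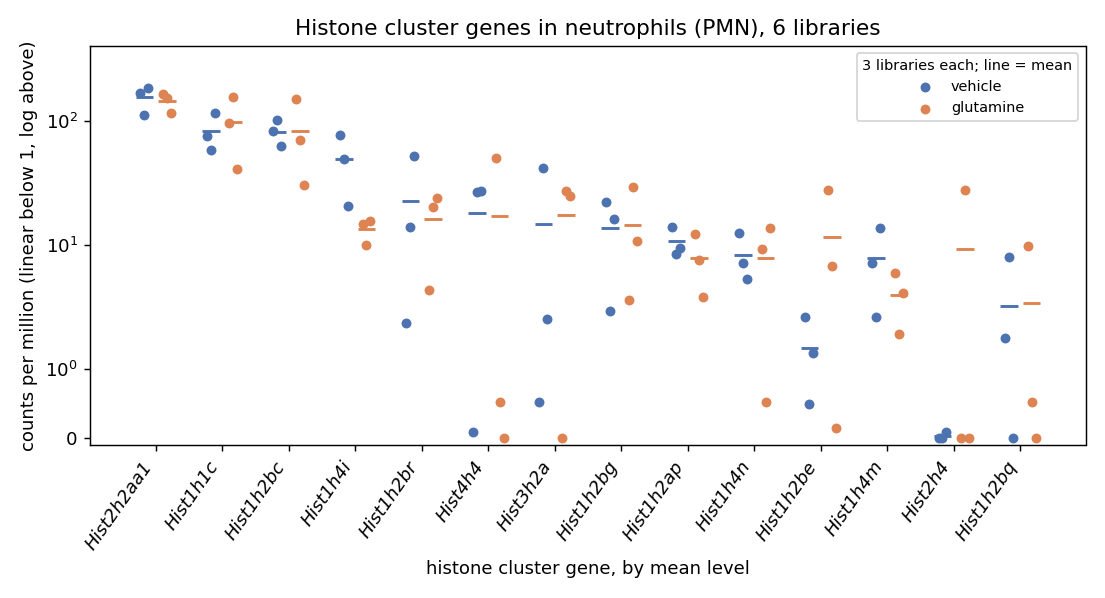
CPM of the 14 highest histone cluster genes in PMN, drawn as for TECs. Hist2h2aa1 is highest and tight, Hist1h4i has all glutamine points below all vehicle points, and Hist4h4, Hist3h2a, Hist2h4 and Hist1h2bq drop to or near 0 in some libraries.

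Counts were patchier over libraries in PMN than in TECs, for members and for other genes. Of the members with a mean of 1 to 50 CPM, 11 of 20 (55%) lacked a count in at least 1 PMN library, compared with 62.0% of 9371 other genes in that range. In TECs this was 1 of 10 members and 596 of 11913 other genes. More than 50% of a gene's CPM came from 1 library in 8 of 20 PMN members and in 54.4% of the other PMN genes. Hist2h4, with 574 counts in 1 glutamine library and 2 counts in 1 vehicle library, and Hist1h2bb, with 223 counts in 1 glutamine library and none elsewhere, were the extreme cases and were named after their values were seen.

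No histone cluster gene passed the threshold of an adjusted p below 0.05 in either cell type (edgeR's quasi-likelihood test, n = 3 against 3). In TECs 12 members passed the filter on low counts and were tested; 5 had a fitted value above 0 and 7 below, with a median log2 fold change of -0.20 against 0.01 over all 14734 genes. Of all genes 0% passed the threshold, and 12.7% (1878) had an unadjusted p below 0.05, against 0 of the 12 members. The groups of 0 members did not overlap after TMM scaling, beside 18.8% of all genes. In PMN 18 members were tested, 9 above 0 and 9 below, with a median of 0.02 against 0.00 over 10130 genes. Again 0% of all genes passed, 3.42% (346) had an unadjusted p below 0.05 and 0 of the 18 members did. Only the groups of Hist1h4i parted, in the lower direction, beside 4.63% of all PMN genes in that direction and 5.87% in the higher one; in unscaled CPM 4.91% parted in the lower direction. DESeq2 called 291 TEC genes (1.98%) and 237 PMN genes (2.5%), and 0 and 0 members. At an unadjusted p below 0.05 DESeq2 had 0 TEC members and 1 PMN member, Hist1h4i, with an adjusted p of 0.448 in that test, beside 13.6% of all TEC and 9.16% of all PMN genes.

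The errors of the members were wide. The SEs of the tested members ran from 0.23 to 1.51 (log2) in TECs and from 0.44 to 2.72 in PMN. TMM scaling moved every TEC fold change by 0.17 (log2) relative to unscaled CPM, so that Hist4h4 and Hist1h2bc, a little lower with glutamine in mean CPM, had fitted values of 0.10.

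**Figure D5:**
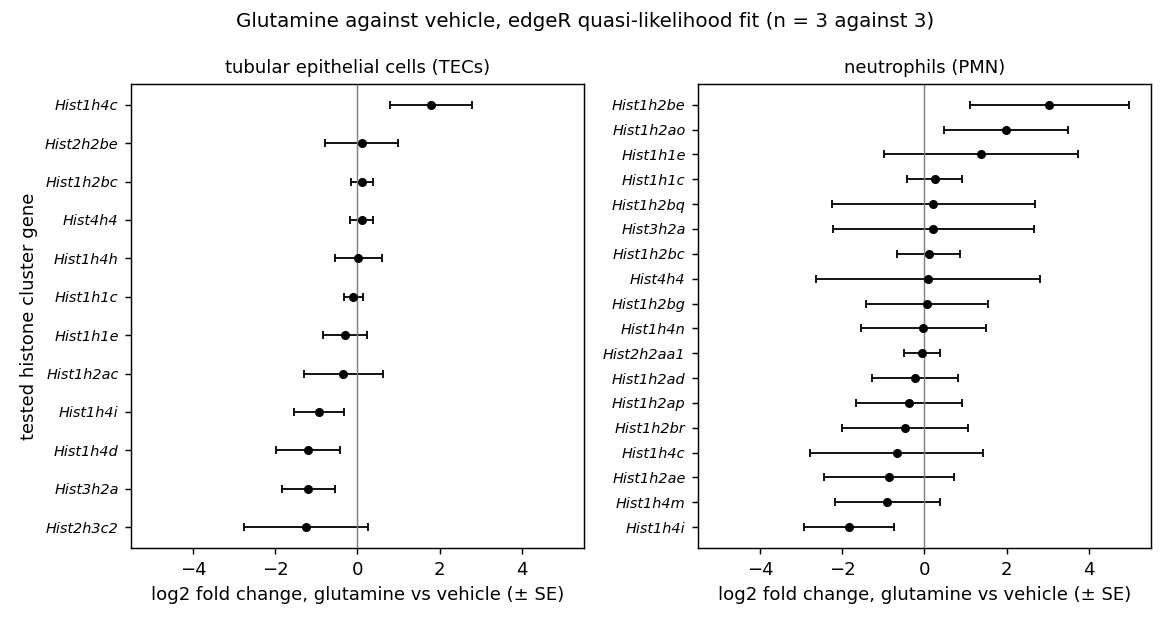
Log2 fold change of each tested histone cluster gene, glutamine against vehicle (points, with SE bars) in TECs (12 genes) and PMN (18 genes). No member passed the threshold, and the bars of PMN members are mostly wider.

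Genes that work with the clusters were compared from lists, and 0 of their members passed the threshold in either cell type. Of the replacement histones, 10 of 11 were tested in TECs, with 2 fitted values above 0 and 8 below and a median log2 fold change of -0.15; 2 had an unadjusted p below 0.05, beside 12.7% of all TEC genes. In PMN 9 were tested, 3 above 0 and 6 below, with a median of -0.18. H3f3b and H3f3a, which both encode the replacement histone H3.3, had 504 ± 74.8 and 183 ± 33.8 CPM in the vehicle libraries, against 478 ± 101 and 148 ± 5.14 CPM after glutamine (SD, n = 3 each). H2afj, an H2A variant gene, had 186 ± 19.9 and 148 ± 35.4 CPM. H2afz, which encodes H2A.Z and was singled out after its values were seen in TECs, stood at 211, 163 and 115 CPM with vehicle and 89.6, 105 and 99.8 CPM with glutamine, groups that did not overlap. In unscaled CPM the groups of H1f0 and H2afy, named after their values were seen, parted in this direction too, beside 15.4% of all TEC genes. After TMM scaling H2afz was the 1 gene of the 10 tested whose groups parted, beside 9.81% of all TEC genes that parted in this direction. Its log2 fold change was -0.55 (SE 0.23, adjusted p = 0.354 in edgeR's test). In PMN its groups did not overlap either, at 518, 469 and 630 CPM against 346, 333 and 408 CPM, with -0.53 (SE 0.26, adjusted p = 1.0 in edgeR's test). The groups of H2afj, named in PMN after its values were seen, parted there in the same direction, 149 ± 30.7 against 89.4 ± 31.7 CPM (SD, n = 3 each). Thus 2 of 9 genes did so beside 4.63% of all PMN genes. H3f3b stood far above every cluster gene in PMN, at 3100.4 ± 197 CPM in the vehicle group and 3498 ± 500.5 CPM in the glutamine group (SD, n = 3 each).

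Of the genes for histone mRNA processing and supply, all 13 found in the tables were tested in TECs and 10 in PMN, with median log2 fold changes of -0.02 and -0.33 and 1 gene each with an unadjusted p below 0.05, beside 12.7% and 3.42% of all genes. Both are named after their values were seen. Lsm11, a part of the U7 particle that cuts histone pre-mRNA, had 20.8 ± 1.90 and 30.5 ± 9.58 CPM in TECs (vehicle and glutamine, SD, n = 3 each), with overlapping groups and an adjusted p of 0.350 in edgeR's test. Cpsf2, a subunit of the 3′-end cleavage complex, had 2111, 849 and 406 counts with vehicle and 0, 1 and 0 counts with glutamine in PMN, with an adjusted p of 0.713 in edgeR's test. It was the 1 of the 10 tested genes whose PMN groups parted, beside 4.63% of all PMN genes in this direction. No TEC gene of the list parted after TMM scaling. In unscaled CPM the TEC groups of Slbp parted, lower with glutamine, beside 15.4% of all TEC genes in this direction. Slbp, whose protein binds the stem-loop, stood at 42.3 ± 4.43 and 37.1 ± 0.429 CPM in TECs and 112 ± 66.7 and 102 ± 60.7 CPM in PMN (vehicle and glutamine, SD, n = 3 each). Srrt and Sympk, which act in mRNA cap binding and 3′-end cleavage, had log2 fold changes of 0.22 (SE 0.26) and 0.48 (SE 0.24) in TECs. Among the histone chaperones, which carry histones to chromatin, 8 were tested in TECs, with 2 fitted values above 0 and 6 below (median -0.14). In PMN 4 were tested, 2 above 0 (Asf1a and Nasp) and 2 below (Hat1 and Daxx), so that the median of -1.25 lies between opposite signs. In TECs 1 gene and in PMN 0 genes had an unadjusted p below 0.05, beside the same 12.7% and 3.42% of all genes. Nasp had 65.7 ± 13.6 and 64.5 ± 14.3 CPM in TECs. In TECs only the groups of Chaf1a, named after its values were seen, parted after TMM scaling, higher with glutamine, beside 9.01% of all TEC genes. It had 2.16 ± 1.86 against 6.86 ± 3.11 CPM, with a log2 fold change of 1.79 (SE 0.77, adjusted p = 0.371 in edgeR's test). Daxx and Hat1 had non-overlapping groups in PMN, lower with glutamine, beside 4.63% of all PMN genes that parted in this direction. Daxx had 55 ± 8.92 against 2.15 ± 3.33 CPM and Hat1 82.2 ± 59.2 against 13.6 ± 13.2 CPM. Their adjusted p-values in edgeR's test were both 1.0.

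Of the 24 S phase and proliferation genes, 22 were tested in TECs, with a median log2 fold change of -0.38, and 3 had an unadjusted p below 0.05, beside 12.7% of all TEC genes. Pcna, the DNA polymerase clamp, stood at 68.7, 69.9 and 49.6 CPM with vehicle and 35.6, 34.8 and 47.6 CPM with glutamine, -0.49 (SE 0.22, adjusted p = 0.392 in edgeR's test). Its groups parted in unscaled CPM, beside 15.4% of all TEC genes in this direction, and overlapped after TMM scaling. Ccna2, an S and G2 phase cyclin, stood at 27.0 ± 3.63 against 14.2 ± 2.48 CPM (SD, n = 3 each), -0.76 (SE 0.26, adjusted p = 0.274 in edgeR's test). Over the list after TMM scaling, the groups of 5 genes parted in the lower and of 4 genes in the higher direction, beside 9.81% and 9.01% of all TEC genes. Mki67, a marker of cycling cells named here after its values were seen, was among the latter, at 0.686 ± 0.285 against 1.95 ± 0.574 CPM (SD, n = 3 each). In PMN 9 of the 24 were tested, with a median of -0.66 and 0 genes at an unadjusted p below 0.05, and the groups of the 3 highest overlapped. Pcna stood at 58.7 ± 31.5 against 78.2 ± 29.0 CPM and Mcm4, a part of the replicative helicase, at 53.7 ± 53.0 against 61.2 ± 53.0 CPM (vehicle and glutamine, SD, n = 3 each), with log2 fold changes of 0.42 (SE 0.76) and 0.20 (SE 2.58). Mki67 stood at 122, 20.2 and 14.3 CPM with vehicle and 52.5, 0.290 and 0 CPM with glutamine, a log2 fold change of -1.45 (SE 2.46).

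Markers of other cells were read beside these levels in both tables. In PMN the 6 neutrophil precursor markers (granule genes made in the marrow while cells still divide) summed to 29.3, 3.84 and 100.4 CPM with vehicle and 137, 39.8 and 20.2 CPM with glutamine, all 6 with counts in some library. The B cell markers summed to 0.484 to 2.65 CPM with vehicle and 21.4 to 30.1 CPM with glutamine, and Ptprc to 317 to 576 against 679 to 1134 CPM. The 3 endothelial markers reached 1096 CPM in vehicle replicate 2 and 2.65 to 53.0 CPM in the other PMN libraries, and platelet markers summed to 465 to 1066 CPM over both groups. In TECs the precursor markers summed to 0.489 to 1.30 CPM with vehicle and 0 to 0.185 CPM with glutamine, 3 of 6 at 0 in all. The vehicle sum was Mpo alone, with 12, 5 and 9 counts and none with glutamine. Ltf and Camp had 1 count each, in glutamine libraries, so these sums rest on very few counts. The B cell markers summed to 10.8 to 22.05 CPM over both groups, and endothelial markers to 168 to 304 CPM. The part of these cells in the levels of the cluster genes was not tested.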

How the data were processed

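The authors deposited 2 tables of estimated counts per gene symbol, 1 for TECs and 1 for PMN, not normalized. The submitters' processing notes name Trim Galore 0.6.4, Salmon 1.0.0, DESeq2 and mm10; the annotation is not given in the sources used here. A spreadsheet program had altered PMN values: of 605208 cells, 19389 carried extra points and 2368 had become dates (unit other in the deposited file), and these were decoded to numbers; 11 members had such a cell. PMN had been planned as counts, and the decoded values were used as such. The 2 columns of each PMN library were averaged as 1 replicate, and PMN libraries were numbered in accession order.

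Estimated counts were rounded and tested per cell type with edgeR 4.0.16 (R 4.3.3), its quasi-likelihood test, TMM normalization, filterByExpr and Benjamini-Hochberg adjustment over all tested genes. The SE is the fold change divided by the root of F. DESeq2 1.42.0 and limma 3.58.1, other scalings and filters, and fits without each library were alternatives. In simulated counts the test recovered 5.43% of 2-fold and 57.7% of 4-fold changes in TECs (14209 genes) and 0% of both in PMN (9296 genes).

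Members and lists were chosen with earlier results of these data known. Named were, per cell type, the 10 members with the highest mean CPM, any past the threshold, the 3 largest log2 fold changes in each direction, and the 3 highest genes of each list with any past the threshold; exceptions are marked where they stand. All 70 members were found by symbol in GENCODE M21 (GRCm38), the source of sequences and positions; CPM per kilobase used the longest transcript.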

Additional observations from a re-analysis of the deposited data

How the results depend on the processing

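No histone cluster gene passed the threshold under any alternative in either cell type, nor at an adjusted p below 0.1, an alternative chosen after seeing the data. Over all genes edgeR called 0 in each, DESeq2 called 291 in TECs and 237 in PMN, and edgeR without a filter called 425 in TECs. Leaving out 1 library gave 0 to 36 TEC genes, 36 without glutamine replicate 2 and 4 without vehicle replicate 5. The median of the tested TEC members, -0.20, was 0.072 without a filter, -0.024 where each library had to hold 10 counts or more, and -0.29 to -0.044 with 1 library left out; without a filter more members are tested. Leaving genes named as predicted, Rik or sensory receptor out of the total raised the TEC share to 0.0331% with vehicle and 0.0320% with glutamine. Over genes with no decoded cell the PMN share was 0.0240% with vehicle and 0.0337% with glutamine. That setting leaves out members and takes only the counts on those genes as the total.

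Of 150 member log2 fold changes under alternatives in TECs 14 changed sign, in 7 of 12 members, and of 227 in PMN 26 did, in 9 of 15; the cause was not tested. In TECs, Daxx was 0.0086 with limma-voom, Daxx was 0.042 and Slbp 0.027 with TMM factors that leave out predicted genes, and Hist1h4h was -0.0029 without a filter. In PMN, Hist1h2bg was -0.0079 with DESeq2, -0.0080 with RLE factors and -0.066 in the first column of each library. With limma-voom, Hist1h2bc was -0.22, Hist1h2br 0.13, Hist4h4 -2.31, Hist3h2a -0.59 and Nasp -0.77. Hist1h4n was 0.011 with upper-quartile factors and 0.091 in the first column. With 1 library left out, TEC log2 fold changes spanned -0.069 to 0.45 for Hist4h4, -0.70 to 0.29 for Hist1h1e, -0.31 to 0.19 for Hist1h4h, -0.054 to 0.26 for H3f3b, -0.12 to 0.067 for Daxx, -0.12 to 0.34 for Hist1h2bc, -0.051 to 0.34 for Nasp, -0.51 to 0.64 for Hist2h2be, -0.12 to 0.11 for Slbp, -0.24 to 0.080 for Hist1h1c, -1.36 to 0.19 for Hist1h2ac and -0.31 to 0.0071 for H2afj. Those of PMN spanned -6.09 to 0.64 for Hist4h4, -0.37 to 3.47 for Hist3h2a, -0.66 to 0.48 for Hist1h4n, -0.42 to 1.14 for Mcm4, -8.49 to 0.17 for Mki67, -0.96 to 0.59 for Hist1h2bg, -0.61 to 0.92 for Nasp, -0.27 to 0.073 for Hist2h2aa1, -0.74 to 0.50 for Hist1h2bc, -1.04 to 0.995 for Hist1h2br, -0.54 to 0.38 for Slbp, -0.99 to 9.29 for Hist1h1e and -0.21 to 0.62 for Hist1h1c.

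No paired analysis was possible because glutamine and vehicle TECs have a single replicate number (3) in common, and numbers of PMN libraries only follow accession order. With 3 libraries a group, an exact permutation test of 1 value cannot go below 0.1, and low counts, shared reads and patchy PMN libraries limit most members.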
